A study of Mus musculus with 26 samples.

Results

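Small leucine-rich proteoglycans are a family of secreted matrix proteins, and 7 of them were followed here in cultured mouse mammary fibroblasts: decorin (Dcn), biglycan (Bgn), asporin (Aspn), lumican (Lum), fibromodulin (Fmod), Prelp and osteoglycin (Ogn). They were taken by gene symbol from 13650 genes listed for fibroblasts, macrophages or both. In the fibroblasts 7 of 7 were listed and tested. In the macrophages, which served as a check for fibroblast RNA, 6 were listed and 4 were tested, and Ogn was not listed.

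These proteins have a core of leucine-rich repeats that binds collagen, and most carry sugar chains. Dcn and Bgn carry chondroitin or dermatan sulfate and Aspn is a close relative of both, whereas Lum, Fmod, Prelp and Ogn belong to the branches that carry keratan sulfate or few chains. Several of them control the width and spacing of collagen fibrils, decorin and biglycan bind TGF-β, and soluble biglycan is a ligand of the innate receptors TLR2 and TLR4. Fibroblasts are a main source of decorin and biglycan in connective tissue, the mammary stroma included.

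Fibroblasts came from the mammary fat pads of BALB/c mice aged 8 weeks, with 2 females for each biological replicate, and were expanded in culture and depleted of CD45+ and EpCAM+ cells. They were seeded at 300000 cells on collagen I, with macrophages (co-culture) or without them (mono-culture), in DMEM or in medium conditioned by 4T1 cells (4T1 CM). 4T1 is a mouse mammary carcinoma line. Of the fibroblast libraries, 4 were from co-cultures with 4T1 CM, 3 from co-cultures with DMEM, 2 from mono-cultures with 4T1 CM and 3 from mono-cultures with DMEM. Co-cultures were sorted after 7 days, with fibroblasts taken as live cells negative for F4/80 and CD11b. The macrophages, grown from BALB/c bone marrow for 7 days with 20% L929 medium and sorted as cells positive for both antigens, gave 4 libraries from co-cultures with 4T1 CM, 3 from co-cultures with DMEM, 4 from mono-cultures with 4T1 CM and 3 of day 0. The labels do not say on which day mono-cultures were harvested or whether groups shared mice, and the p-values rest on the variation among these libraries alone.

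Libraries were made from the 3' ends of messenger RNA and held 1945980 to 7632366 reads in fibroblasts and 1434695 to 4140985 reads in macrophages. The 18 fibroblast marker genes were read in each of the 12 fibroblast libraries. They summed to 34072 to 41887 CPM (reads scaled to the total of the library) in co-culture in 4T1 CM and 45605 to 61223 in co-culture in DMEM. The sums were 40947 to 49359 in mono-culture in 4T1 CM and 44719 to 48567 in mono-culture in DMEM. At a limma adjusted p under 0.05, 7 of the 18 were lower and 0 higher in 4T1 CM in co-culture, where 3.52% and 2.33% of all genes were. In mono-culture 3 were lower and 2 higher, against 6.93% and 6.36%. The 20 macrophage marker genes summed to 59.2 to 325 CPM in fibroblasts co-cultured in 4T1 CM, 732 to 1623 in those co-cultured in DMEM, 171 to 180 in mono-culture in 4T1 CM and 47.3 to 60.0 in mono-culture in DMEM. The fibroblast groups differed in other cell types as well. The 7 glial marker genes summed to 2.96 to 219 CPM in co-culture in 4T1 CM, against 307 to 658 in co-culture in DMEM, and to 1.98 to 2.06 in mono-culture in 4T1 CM, against 327 to 414 in mono-culture in DMEM. The 9 skeletal muscle genes summed to 34.0 to 34.6 CPM in mono-culture in 4T1 CM and to 194 to 1002 in mono-culture in DMEM. In such bulk libraries fewer cells of a type and less RNA per cell cannot be told apart.

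The family lies in small clusters of the genome (mm10, GENCODE vM21). Dcn, at chr10:97479609-97518143, and Lum, at chr10:97565128-97572703, share the plus strand with a gap of 46984 bases and no protein-coding gene between them. Aspn, at chr13:49544443-49567565, and Ogn, at chr13:49608046-49624501, also share the plus strand. Their gap of 40480 bases holds 1 more family gene, Omd, which is not listed in the fibroblast table. Prelp, at chr1:133910304-133921414 on the minus strand, and Fmod, at chr1:134037254-134048277 on the plus strand, lie 115839 bases apart with no protein-coding gene between them. Bgn stands alone on the X chromosome, at chrX:73483602-73495933 on the plus strand.

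Promoters from RefSeq (GRCm38.p6, from 250 bases before to 50 bases after the transcript start) were matched for 5 of the 7 genes. The 3 printed here belong to the Aspn and Ogn pair, which moved together in the results, and to Bgn, which had the smallest log2 fold changes in 4T1 CM. Capitals mark matches, on either strand, to any of 4 motifs: the TATA box letters TATAAA, the GC box letters GGGCGG, the TEAD site letters GGAATG or the AP-1 site letters TGANTCA.
Aspn: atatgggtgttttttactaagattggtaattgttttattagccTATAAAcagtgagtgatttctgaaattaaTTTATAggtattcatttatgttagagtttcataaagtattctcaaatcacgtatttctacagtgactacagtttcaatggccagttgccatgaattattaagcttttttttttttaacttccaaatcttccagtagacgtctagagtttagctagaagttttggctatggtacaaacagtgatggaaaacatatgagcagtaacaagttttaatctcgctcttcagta
Ogn: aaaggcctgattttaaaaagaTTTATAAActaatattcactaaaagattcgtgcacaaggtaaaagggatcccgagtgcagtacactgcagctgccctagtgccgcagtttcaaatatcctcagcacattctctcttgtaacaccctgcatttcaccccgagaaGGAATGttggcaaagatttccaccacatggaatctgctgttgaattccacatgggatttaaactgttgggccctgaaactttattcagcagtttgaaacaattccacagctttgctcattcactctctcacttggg
Bgn: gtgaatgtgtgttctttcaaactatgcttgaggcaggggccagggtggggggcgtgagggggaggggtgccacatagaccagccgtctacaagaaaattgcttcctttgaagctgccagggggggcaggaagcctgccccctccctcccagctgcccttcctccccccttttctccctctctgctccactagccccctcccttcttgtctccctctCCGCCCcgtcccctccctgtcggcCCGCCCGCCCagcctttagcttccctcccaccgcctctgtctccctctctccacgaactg
The Aspn window, chr13:49544193-49544492 on the plus strand, was 31.0% G and C, and 1.28% of the 32851 mouse promoter windows were lower. It held 2 matches to TATAAA, which begin 207 and 178 bases before the start. The Ogn window, chr13:49607765-49608064 on the plus strand, was 42.3% G and C and held 2 overlapping matches to TATAAA on opposite strands, 229 and 227 bases before the start, and 1 match to GGAATG 86 bases before it. The Bgn window, chrX:73483351-73483650 on the plus strand, was 63.7% G and C and held 3 matches to GGGCGG on the reverse strand, the nearest 2 of which overlap. The median window held 52.7% G and C. Of all windows, 13.6% held the TATA box letters, 35.7% the GC box letters, 14.7% the TEAD letters and 7.81% the AP-1 letters. The Fmod and Prelp windows held none of the 4 motifs.

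In fibroblasts 4 of 7 family genes were called between medium conditioned by 4T1 cells and DMEM. Between co-culture with macrophages and mono-culture 0 of 7 were called. Of all genes tested, 1% were called there in DMEM and 0.0242% in 4T1 CM, so nothing is read from that 0. Dcn and Lum rose, Aspn and Ogn fell, and Bgn, Fmod and Prelp did not pass the test, in mono-culture and in co-culture. So in mono-culture 2 of 7 rose and 2 fell, where 6.36% of the 12401 genes tested were higher, 6.93% were lower and 13.3% were called in all. In co-culture the counts were again 2 and 2, where 2.33% of genes were higher, 3.52% lower and 5.85% called in all. Aspn and Ogn passed the filter on low values mainly through the DMEM libraries. Nothing is therefore read from the counts of lower members, or from totals that include them. A gene was called where limma's moderated test on log2(normalized read count + 1), with Benjamini-Hochberg adjustment over all genes tested, gave an adjusted p under 0.05. Log2 fold changes below are on that scale, which understates the change of genes with few reads. The mono- and co-culture comparisons share no library, but they come from 1 fit with a shared estimate of the spread. The labels do not say whether their groups shared mice. The median log2 fold change over the 7 genes stood at 0.24 for mono-culture and -1.46 for co-culture, beside a median of -0.01 over all genes tested in both. The libraries did not overlap for 3 members that were higher and 2 that were lower in mono-culture, where 22.8% and 23.8% of all genes did the same. In co-culture this held for 2 higher and 2 lower members, against 7.06% and 9.13% of all genes.

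**Figure D1:**
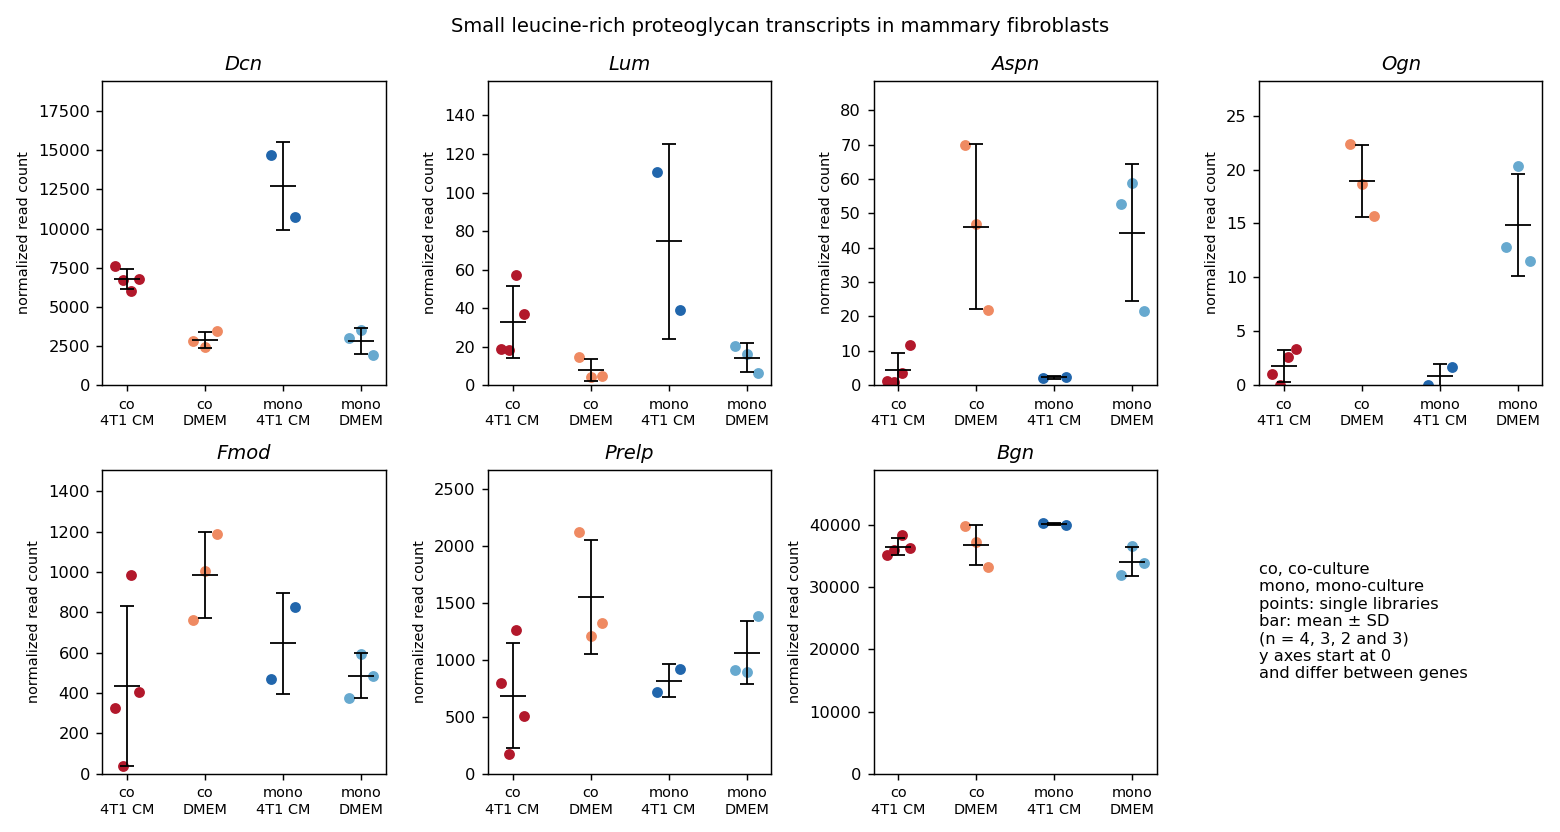
Normalized read count (y axis, starting at 0, a different range for each gene) of the 7 proteoglycan genes in the 12 fibroblast libraries, by culture and medium; points are libraries and bars the mean ± SD (n = 4, 3, 2 and 3). Dcn and Lum are higher, and Aspn and Ogn lower, in 4T1 CM than in DMEM in both cultures, while the Bgn libraries lie between 31910 and 40261.

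Decorin binds collagen fibrils and can hold TGF-β and growth factor receptors. In mono-culture Dcn had 14690 and 10710 normalized reads in 4T1 CM, against 2985, 3549 and 1919 in DMEM. In co-culture it had 7613, 6744, 5989 and 6761 in 4T1 CM, against 2796, 2421 and 3445 in DMEM. Every library in 4T1 CM lay above every library in DMEM, and the 2 mono-cultures in 4T1 CM lay above the other 10 libraries. Dcn averaged 12700 ± 2814 in mono-culture in 4T1 CM (SD, n = 2) and 2818 ± 828 in mono-culture in DMEM (SD, n = 3). The log2 fold change was 2.20 ± 0.24 (SE) in mono-culture, with a limma adjusted p of 0.000147. In co-culture it was 1.24 ± 0.20 (SE), with a limma adjusted p of 0.00321, from means of 6777 ± 664 in 4T1 CM (n = 4) and 2888 ± 518 in DMEM (n = 3). Dcn passed the test in both comparisons under every alternative tried.

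Lumican, the chromosomal neighbour of decorin, is a keratan sulfate proteoglycan that limits fibril width. Lum had 111 and 38.8 normalized reads in mono-culture in 4T1 CM, against 20.5, 16.2 and 6.16 in mono-culture in DMEM. The co-cultures had 18.8, 18.3, 57.4 and 36.7 in 4T1 CM, against 14.3, 4.16 and 4.83 in DMEM. The groups did not overlap within either culture, although the lowest 2 co-culture libraries in 4T1 CM lay below the highest mono-culture library in DMEM. In mono-culture the log2 fold change was 2.27 ± 0.65 (SE, limma adjusted p = 0.0338), and co-culture gave 1.97 ± 0.54 (SE, limma adjusted p = 0.0474). Lum averaged 74.7 ± 50.8 in mono-culture in 4T1 CM (n = 2) and 14.3 ± 7.35 in mono-culture in DMEM (n = 3). In mono-culture the limma adjusted p was 0.294 without mono-culture 4T1 CM replicate 1 (log2 fold change 1.52, and 3.01 without replicate 2), 0.0587 without mono-culture DMEM replicate 2 and 0.106 without mono-culture DMEM replicate 3. In co-culture it ranged from 0.0166 to 0.164 over the alternatives tried, and the call was lost in 13 of 22. These were co-culture 4T1 CM replicate 1, 3 or 4, co-culture DMEM replicate 2 or 3, or mono-culture DMEM replicate 1 or 2 left out, and 6 other settings. The adjusted p was 0.0740 by edgeR, 0.0562 at a pseudocount of 5, 0.0548 at a filter of 20, 0.0506 with equal library totals, 0.0604 with the compared groups alone and 0.0917 with the replicate block.

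Asporin is related to decorin and biglycan but carries no sugar chain, and in humans it binds TGF-β. Aspn had 1.97 and 2.47 normalized reads in mono-culture in 4T1 CM, against 52.7, 58.9 and 21.6 in mono-culture in DMEM. The co-cultures had 1.04, 0.83, 3.48 and 11.7 in 4T1 CM, against 69.9, 46.8 and 21.7 in DMEM. No library in 4T1 CM reached the lowest library in DMEM, and the highest of them was co-culture replicate 4. In mono-culture the log2 fold change was -3.70 ± 0.74 (SE, limma adjusted p = 0.00637), and for co-culture it was -3.48 ± 0.62 (SE, limma adjusted p = 0.00536). The level in 4T1 CM rests on 4 reads in the 2 mono-cultures together, against 160 reads in the 3 mono-cultures in DMEM. This is a ratio of 18.4-fold lower, with a counting interval of 7.03 to 68.2 at 95% that covers counting error only.

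Osteoglycin, the neighbour of asporin, was first found in bone and is made by connective tissue cells of many organs. Ogn had 0 and 1.65 normalized reads in mono-culture in 4T1 CM, against 12.8, 20.3 and 11.5 in mono-culture in DMEM. The co-cultures had 1.04, 0, 2.61 and 3.33 in 4T1 CM, against 22.4, 18.7 and 15.7 in DMEM. Again no library in 4T1 CM reached the lowest library in DMEM. For mono-culture the log2 fold change was -3.25 ± 0.64 (SE, limma adjusted p = 0.00552), and for co-culture it was -3.05 ± 0.53 (SE, limma adjusted p = 0.00469). In the mono-cultures 2 reads stood against 50, a ratio of 11.5-fold lower with a counting interval of 3.01 to 97.3. Without mono-culture 4T1 CM replicate 2, which held both reads, the level was lower by at least 2.25-fold, taking 3 reads as the floor of the group. Ogn passed the filter on low values through the DMEM libraries alone, and Aspn through them and 1 co-culture in 4T1 CM, so a gene with their pattern had to differ to be tested at these levels.

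The calls for Aspn and Ogn in mono-culture also depended on 1 library. Without mono-culture 4T1 CM replicate 1 the limma adjusted p was 0.0559 for Aspn and 0.0745 for Ogn, and Dcn was then the 1 member that passed. The genes called in that comparison numbered 537 without this library, against 1648 with it, and 847 and 1065 without mono-culture DMEM replicate 1 or 2. In co-culture Aspn and Ogn passed under every alternative tried. Most of these kept a filter on low values, so the limit given above holds there too and this is not read as added support. The co-culture count of called genes was 725, and 470 without co-culture 4T1 CM replicate 1 and 258 without co-culture DMEM replicate 1.

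Glial marker genes moved with Aspn and Ogn between the media. Each of the 7, which are genes of Schwann cells and their precursors, was lower in 4T1 CM at a limma adjusted p under 0.05 in both cultures. Of all genes tested, 6.93% were lower in mono-culture and 3.52% in co-culture. Sox10, a transcription factor of these cells, averaged 0.987 ± 1.40 normalized reads in mono-culture in 4T1 CM (n = 2) and 533 ± 62.2 in mono-culture in DMEM (n = 3). Among the co-cultures in 4T1 CM, replicate 4 had the highest summed glial level, 219 CPM, and the highest Aspn and Ogn. Replicates 1 and 2 had summed glial levels of 2.96 and 9.53 CPM and the lowest Aspn and Ogn. That order rests on 1 to 14 reads of Aspn and 0 to 4 of Ogn per library. The co-cultures in DMEM did not keep it. There replicate 3 had the highest glial sum, 658 CPM, and the lowest Aspn and Ogn, 21.7 and 15.7 normalized reads. In mono-culture in DMEM replicate 2 was highest for the glial sum (414 CPM), Aspn and Ogn, and replicate 3 was lowest for each. The skeletal muscle genes were lower in mono-culture in 4T1 CM too, where 8 of 9 fell, and in co-culture 2 of 9 fell. Other cell types differed as well. In co-culture 6 of 10 endothelial, 2 of 4 mural and 15 of 18 macrophage marker genes fell in 4T1 CM, and 0 of each rose. In mono-culture 1 endothelial gene rose and 1 fell, 1 mural gene rose and 2 fell, and 2 macrophage genes rose and 0 fell. The part of any of these cells in the fall of Aspn and Ogn was not tested.

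Fibromodulin and Prelp are collagen-binding relatives of lumican, and Prelp also binds heparan sulfate. In mono-culture Fmod had 470 and 824 normalized reads in 4T1 CM, against 373, 595 and 487 in DMEM. In co-culture it had 325, 36.5, 983 and 403 in 4T1 CM, against 764, 1004 and 1187 in DMEM. The groups overlapped in both cultures, and the 4 co-cultures in 4T1 CM spread from 36.5 to 983, with a coefficient of variation of 90.8%. The log2 fold change was 0.39 ± 0.89 (SE, limma adjusted p = 0.813) in mono-culture and -1.88 ± 0.74 (SE, limma adjusted p = 0.177) in co-culture.

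Prelp had 717 and 921 normalized reads in mono-culture in 4T1 CM, against 915, 891 and 1387 in mono-culture in DMEM. In co-culture it had 792, 174, 1265 and 511 in 4T1 CM, against 2127, 1211 and 1325 in DMEM. The same library, co-culture 4T1 CM replicate 2, was lowest for Fmod and for Prelp, and replicate 3 was the highest of its group for both. The log2 fold change of Prelp was -0.36 ± 0.57 (SE, limma adjusted p = 0.722) in mono-culture and -1.46 ± 0.48 (SE, limma adjusted p = 0.0965) in co-culture. Without co-culture 4T1 CM replicate 3, both genes passed in co-culture, with a limma adjusted p of 0.0379 and a log2 fold change of -2.51 for Fmod, and 0.0214 and -1.86 for Prelp.

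Biglycan is the close relative of decorin with a pair of sugar chains, and it gave 71.6% to 89.8% of the family's reads in each fibroblast library. In mono-culture Bgn had 40261 and 40060 normalized reads in 4T1 CM, against 31910, 36559 and 33854 in DMEM. In co-culture it had 35170, 36017, 38379 and 36352 in 4T1 CM, against 39786, 37267 and 33259 in DMEM. The coefficient of variation within groups was 0.354% to 8.95%. The mono-culture libraries in 4T1 CM lay above those in DMEM, but the log2 fold change of 0.24 ± 0.20 (SE) did not pass, with a limma adjusted p of 0.451 and a 95% interval of -0.18 to 0.66. In co-culture the groups overlapped and the difference was -0.01 ± 0.16 (SE), with a limma adjusted p of 0.991 and an interval of -0.36 to 0.34. Under quantile normalization this difference was 0.23 and again not called.

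**Figure D2:**
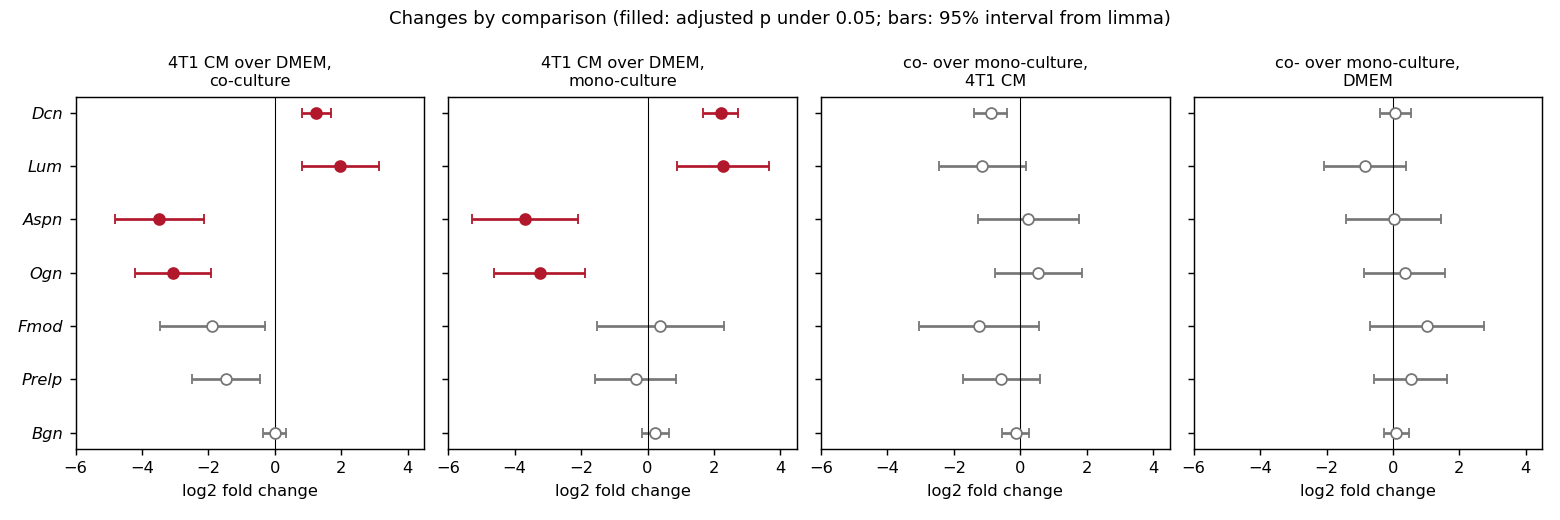
Log2 fold change (x axis) of each gene with its 95% interval from limma in 4 comparisons of fibroblast groups; filled red points have an adjusted p under 0.05. The filled points are Dcn, Lum, Aspn and Ogn in the 2 comparisons of 4T1 CM with DMEM, and none is filled in the 2 comparisons of co-culture with mono-culture.

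Together the 7 genes gave overlapping shares of the library in the 2 co-culture groups, and their highest shares in mono-culture in 4T1 CM. The family took 1.41% and 1.31% of reads in mono-culture in 4T1 CM, against 0.929%, 1.06% and 0.956% in mono-culture in DMEM. In co-culture it took 1.13%, 1.05%, 1.17% and 1.10% in 4T1 CM, against 1.18%, 1.05% and 0.991% in DMEM. The mono-culture groups did not overlap and the co-culture groups did.

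The balance between the 2 most read genes differed between media. Dcn made up 26.1% and 20.4% of the family's reads in mono-culture in 4T1 CM, against 8.23%, 8.51% and 5.09% in mono-culture in DMEM. In co-culture its share was 17.3%, 15.7%, 12.8% and 15.3% in 4T1 CM, against 6.13%, 5.77% and 8.78% in DMEM. There were 2.74 and 3.74 Bgn reads for each Dcn read in mono-culture in 4T1 CM, and 10.7, 10.3 and 17.6 in mono-culture in DMEM. In co-culture the ratio was 4.62, 5.34, 6.41 and 5.38 in 4T1 CM, and 14.2, 15.4 and 9.65 in DMEM. The ratio was lower in every library in 4T1 CM than in any library in DMEM. These are shares of 3' end reads and not levels per length of transcript.

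**Figure D3:**
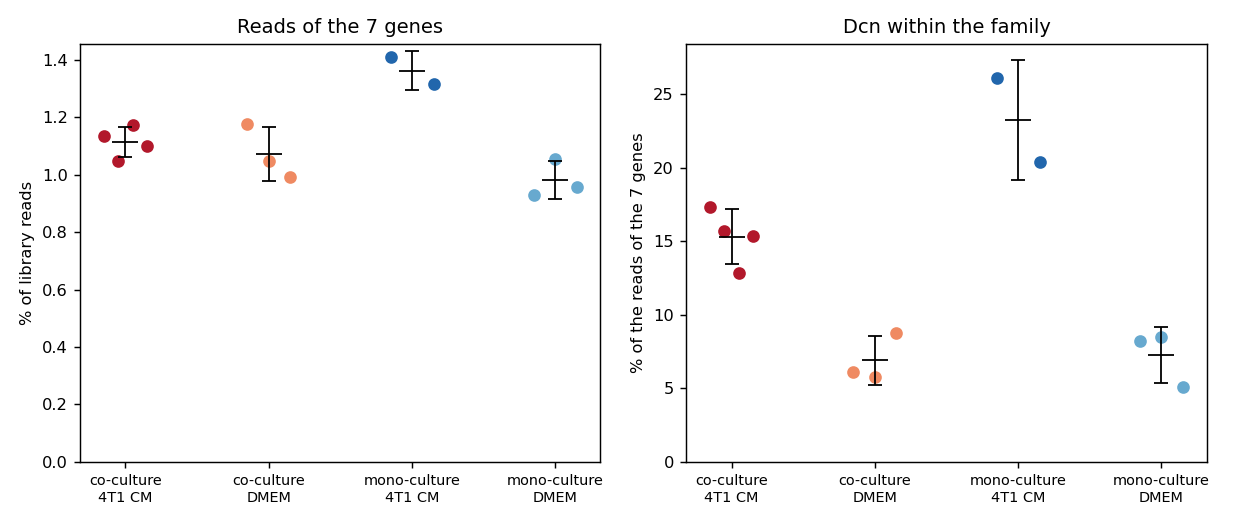
Left, reads of the 7 genes in percent of all reads of a library; right, Dcn reads in percent of the reads of the 7 genes (both y axes start at 0). Points are the 12 fibroblast libraries and bars the mean ± SD (n = 4, 3, 2 and 3); the Dcn share is 12.8% to 26.1% in 4T1 CM and 5.09% to 8.78% in DMEM, while the family's share of the library runs from 0.929% to 1.41%.

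None of the 7 genes passed the limma test between co-culture and mono-culture in either medium. In DMEM 1% of the 12401 genes tested were called between co-culture and mono-culture (124 genes, 0.855% higher and 0.145% lower, with 1351 at an unadjusted p under 0.05). In 4T1 CM 0.0242% were called, which is 3 genes, with 1155 at an unadjusted p under 0.05 and 28 called by DESeq2. In DMEM edgeR and DESeq2 also called 0 members. The low number of calls bears on what a missed threshold shows here, so intervals are given below. In DMEM the macrophage marker sums given above did not overlap between co-culture and mono-culture and 14 of 18 tested macrophage genes rose, while the glial sums overlapped and 0 of 7 glial genes were called. In 4T1 CM the macrophage sums overlapped and 0 of 18 genes were called. The glial sums did not overlap there, at 2.96 to 219 CPM in co-culture and 1.98 to 2.06 in mono-culture, with 0 of 7 genes called. In the same comparison 2 of 9 skeletal muscle genes (Myl1 and Mybph) rose, at summed levels of 86.8 to 157 CPM in co-culture and 34.0 to 34.6 in mono-culture. The part of these cells in the member differences was not tested.

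In 4T1 CM the largest member difference relative to its error was that of Dcn. It had 7613, 6744, 5989 and 6761 normalized reads in co-culture, and 14690 and 10710 in mono-culture, so the groups did not overlap. The log2 difference was -0.89 ± 0.23 (SE), with a 95% interval of -1.39 to -0.40, an unadjusted limma p of 0.00178 and an adjusted p of 0.311. By DESeq2 on recovered reads its adjusted p was 0.0493, and it was the 1 member called there. The lower libraries for Dcn and for Bgn in co-culture made 2 members without overlap, a pattern that 7.18% of all genes showed, with 7.86% in the other direction. The other 6 members had log2 differences from -1.24 ± 0.84 (SE) for Fmod to 0.55 ± 0.60 (SE) for Ogn, with limma adjusted p from 0.599 to 0.943. Aspn and Ogn were near their lowest levels in both groups, with 20 and 8 reads in the 4 co-cultures against 4 and 2 reads in the 2 mono-cultures. The count of called genes in this comparison was 297 without mono-culture 4T1 CM replicate 2 and 0 without replicate 1.

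In DMEM Dcn differed by 0.07 ± 0.22 (SE) on the log2 scale between co-culture and mono-culture, with an interval of -0.40 to 0.53 and a limma adjusted p of 0.957. Fmod had 764, 1004 and 1187 normalized reads in co-culture, against 373, 595 and 487 in mono-culture. The libraries did not overlap, as for 10.4% of all genes in this direction and 8.42% in the other, but the log2 difference of 1.02 ± 0.79 (SE) did not pass, with a limma adjusted p of 0.707. It passed, with an adjusted p of 0.0344, when limma was fitted to these 2 groups only, where the wide spread of Fmod in co-culture in 4T1 CM did not enter. For Bgn the interval of the log2 difference was -0.27 to 0.48. For Lum, Prelp, Aspn and Ogn the log2 differences were -0.84, 0.53, 0.03 and 0.35, with overlap between the groups for each gene. The genes called numbered 18, 34 and 26 without mono-culture DMEM replicate 1, 2 or 3, and 79, 28 and 20 without co-culture DMEM replicate 1, 2 or 3.

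The 4T1 CM effect in co-culture was also set against that in mono-culture as an interaction. No member was called, where 0.145% of genes were, 0.0323% higher and 0.113% lower (18 genes, with 1508 at an unadjusted p under 0.05). For Dcn the interaction was -0.96 ± 0.32 (SE) on the log2 scale, with an unadjusted limma p of 0.00938, an adjusted p of 0.222 and an interval of -1.64 to -0.28. For Fmod it was -2.26 ± 1.16 (SE), with a limma adjusted p of 0.463. The other 5 had limma adjusted p from 0.595 to 0.953.

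Correlations between members were taken over the 12 libraries. On log2(normalized read count + 1), Pearson's r was 0.956 for Aspn and Ogn, 0.880 for Fmod and Prelp and 0.825 for Dcn and Lum. After the group means were taken out it was 0.741, 0.855 and 0.371. Fmod and Prelp varied together among the libraries in 4T1 CM, but not among those in DMEM. In co-culture in DMEM replicate 1 was lowest for Fmod (764 normalized reads) and highest for Prelp (2127). In mono-culture in DMEM replicate 2 was highest for Fmod (595) and lowest for Prelp (891). Much of the likeness of Dcn and Lum lay in the group means. Likeness was not particular to neighbours: within groups, members on different chromosomes had r = 0.787 (Fmod and Ogn), 0.615 (Aspn and Lum) and 0.605 (Prelp and Ogn), and over the 12 libraries 0.564, -0.563 and 0.690. Dcn and Aspn, which lie on different chromosomes, had r = -0.826 over the 12 libraries and 0.06 within groups. The points share 4 group means and their libraries' depth, so these values describe the libraries and carry no p.

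**Figure D4:**
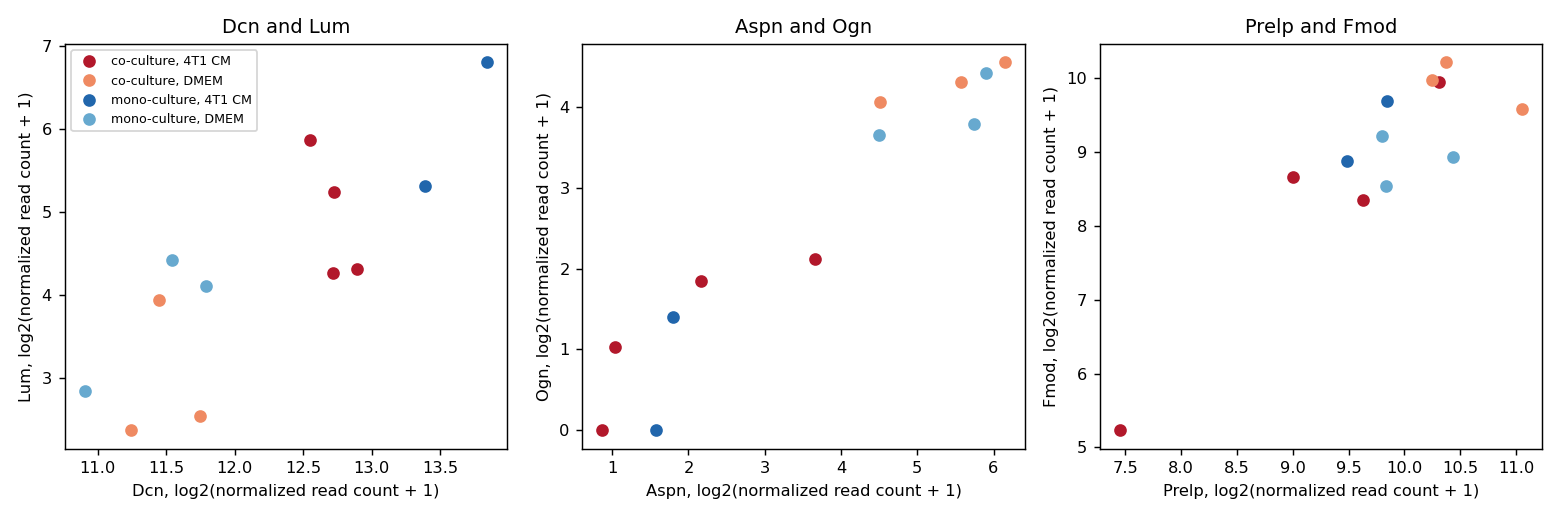
Log2(normalized read count + 1) of the 2 genes of each neighbouring pair in the 12 fibroblast libraries (points, coloured by group). In the Fmod and Prelp plot co-culture 4T1 CM replicate 2 stands at the low end of both axes, and in the Aspn and Ogn plot the 6 libraries in 4T1 CM lie below the 6 in DMEM on both axes.

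Among the tested genes with a mean of at least 20 normalized reads, the 3 that ran most like each member over the 12 libraries were named with Pearson's r on the same scale. For Dcn they were Tnc (tenascin C, a matrix glycoprotein; r = 0.968), Il11 (an IL-6 family cytokine; r = 0.967) and Tceal3 (r = 0.954). Tnc averaged 5710 normalized reads in mono-culture in 4T1 CM and 1404 in mono-culture in DMEM, and 3564 in co-culture in 4T1 CM and 1349 in co-culture in DMEM. For Aspn they were Plxna2 (a semaphorin receptor; r = 0.964), Ccn3 (a matricellular protein; r = 0.964) and Itm2a (r = 0.963). Ccn3 averaged 20.8 normalized reads in mono-culture in 4T1 CM and 2922 in mono-culture in DMEM, and 54.8 in co-culture in 4T1 CM and 2306 in co-culture in DMEM. For Ogn they were Fndc1, Fbn1 (fibrillin-1) and Eln (elastin), with r of 0.963 each. Elastin averaged 0.825 normalized reads in mono-culture in 4T1 CM and 46.7 in mono-culture in DMEM, and 2.39 in co-culture in 4T1 CM and 89.1 in co-culture in DMEM.

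The remaining members had other companions. For Lum they were Cav2 (a caveolin) and Ptgfrn with r = 0.907 and Cgref1 with r = 0.887. For Fmod, Prelp itself ranked first (r = 0.880), before Nmt1 (0.864) and Gbp3 (0.860), and for Prelp the order was Col6a1 (a chain of collagen VI; 0.882), Fmod (0.880) and Lbp (the lipopolysaccharide-binding protein; 0.851). For Bgn they were Hspa14 (r = 0.945), Arhgap29 (0.858) and Reck (an inhibitor of matrix metalloproteinases; 0.852). Each comparison was over 9323 genes (9324 for Ogn), so high values were chosen from many.

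The collagens that these proteins bind did not follow 1 direction. Of 12 fibrillar and associated collagen genes, 3 rose and 1 fell in 4T1 CM in mono-culture, with a median log2 fold change of -0.07. In co-culture 0 rose and 6 fell, with a median of -0.57. For this and the fibroblast lists that follow, the shares over all genes tested were 6.36% higher and 6.93% lower in mono-culture. In co-culture the shares were 2.33% and 3.52%, and counts near them are not read as a pattern. Col1a1 averaged 10662 ± 1281 normalized reads in mono-culture in 4T1 CM and 5670 ± 1250 in mono-culture in DMEM (log2 fold change 0.93, limma adjusted p = 0.00806). In co-culture it averaged 6246 in 4T1 CM and 8332 in DMEM and did not pass (limma adjusted p = 0.180). Col14a1, a collagen at fibril surfaces that binds decorin, fell in both cultures. It averaged 13.4 ± 6.15 in mono-culture in 4T1 CM and 133 ± 57.9 in mono-culture in DMEM, and 6.60 ± 4.72 in co-culture in 4T1 CM and 195 ± 152 in co-culture in DMEM. The 3 chains of collagen VI, a partner of decorin and biglycan, fell in co-culture, by 1.24 (Col6a1), 1.57 (Col6a2) and 1.45 (Col6a3) on the log2 scale, with limma-adjusted p of 0.0139, 0.00844 and 0.0393. Col5a3 and Col12a1 rose in mono-culture, by log2 fold changes of 1.98 and 1.68.

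Of 8 enzymes that cross-link or hydroxylate collagen, Loxl2 rose (log2 fold change 1.29) and Loxl4 fell (-1.23) in mono-culture, and 0 were called in co-culture. Of 11 further members of the proteoglycan family 4 were listed, and of these Podn (podocan) fell in both cultures. Podn averaged 25.1 ± 15.9 normalized reads in mono-culture in 4T1 CM and 578 ± 88.9 in mono-culture in DMEM (limma adjusted p = 0.00222), and 30.8 ± 23.6 in co-culture in 4T1 CM and 286 ± 210 in co-culture in DMEM (0.00815). Glial markers fell in the same comparisons, and their part in the fall of Podn and Col14a1 was not tested.

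The enzymes that build the sugar chains were mostly not called, where 13.3% of all genes were called in mono-culture and 5.85% in co-culture. Of 24 tested genes for the linker and for chondroitin and dermatan sulfate, 1 rose and 1 fell in mono-culture and 1 rose and 2 fell in co-culture, with medians of 0.16 and 0.09. Pxylp1, the phosphatase that acts on the xylose of the linker, rose in both. It averaged 391 ± 30.6 normalized reads in mono-culture in 4T1 CM and 103 ± 9.14 in mono-culture in DMEM, and 263 ± 57.6 in co-culture in 4T1 CM and 139 ± 15.5 in co-culture in DMEM. Chst3, a chondroitin 6-sulfotransferase, fell in both. It had no read in mono-culture in 4T1 CM and averaged 12.5 ± 2.97 normalized reads in mono-culture in DMEM. In co-culture it averaged 1.47 ± 2.39 in 4T1 CM and 18.7 ± 12.6 in DMEM. Chst3 passed the filter on low values mainly through the DMEM libraries, so nothing is read from its direction or from counts that include it. Of 7 keratan sulfate genes 1 rose in each culture and 0 fell: Chst1, a keratan sulfate sulfotransferase, with 163 ± 2.20 normalized reads in mono-culture in 4T1 CM and 28.3 ± 5.97 in mono-culture in DMEM, and 92.2 ± 19.6 in co-culture in 4T1 CM and 51.4 ± 6.04 in co-culture in DMEM.

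Among 12 genes for receptors of these proteins, 2 rose in 4T1 CM in mono-culture, 1 rose in co-culture and 0 fell. Egfr, a receptor that decorin binds, rose in both, with log2 fold changes of 1.07 in mono-culture and 0.69 in co-culture (limma adjusted p = 0.00604 and 0.0345). Cd14, the co-receptor of the biglycan receptors, rose in mono-culture and averaged 115 ± 5.01 normalized reads in 4T1 CM and 28.7 ± 8.75 in DMEM. It is also a macrophage marker, and the macrophage marker sum was higher in those libraries too. Tlr2 averaged 34.9 ± 1.94 in mono-culture in 4T1 CM and 15.1 ± 2.73 in mono-culture in DMEM and did not pass (limma adjusted p = 0.119), and Tlr4 averaged 4.77 ± 4.42 and 2.73 ± 2.58 in the same groups. Cd44, a hyaluronan receptor, had a log2 fold change of 0.34 in mono-culture (limma adjusted p = 0.387).

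In the TGF-β list 11 genes were tested, of which 1 rose and 2 fell in mono-culture and 2 rose and 3 fell in co-culture. Ltbp2, a matrix protein named for the latent TGF-β binding protein family, averaged 3139 ± 315 normalized reads in mono-culture in 4T1 CM and 393 ± 154 in mono-culture in DMEM. In co-culture it averaged 2212 ± 504 in 4T1 CM and 863 ± 247 in DMEM. Its rise is not read as a change in TGF-β binding. Tgfb3 fell in both cultures (log2 fold changes -1.47 and -0.92) and so did the receptor gene Tgfbr2 (-1.15 in each). Tgfb2 averaged 9.74 ± 4.59 normalized reads in co-culture in 4T1 CM and 45.1 ± 22.9 in co-culture in DMEM, and fell (log2 fold change -2.07, limma adjusted p = 0.0111). Tgfb1 rose in co-culture (0.92, limma adjusted p = 0.0468), where the groups overlapped.

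Of 12 proteases with roles in this matrix, 2 rose and 3 fell in 4T1 CM in mono-culture, and 3 rose and 2 fell in co-culture. Mmp3 (stromelysin-1, which cleaves decorin and other proteoglycans) averaged 1443 ± 581 normalized reads in mono-culture in 4T1 CM and 278 ± 24.4 in mono-culture in DMEM. In co-culture it averaged 1345 ± 451 in 4T1 CM and 116 ± 82.3 in DMEM. Mmp9 averaged 1512 ± 295 in mono-culture in 4T1 CM and 14.5 ± 2.38 in mono-culture in DMEM, and 917 ± 379 in co-culture in 4T1 CM and 121 ± 10.2 in co-culture in DMEM. Bmp1, the protease that removes the propeptide of biglycan and decorin, fell in co-culture by 0.52 on the log2 scale (limma adjusted p = 0.0183). Between co-culture and mono-culture in DMEM, 1 protease rose (Mmp9) and 2 fell (Mmp13 and Mmp2), and 0 were called in 4T1 CM. Of all genes tested, 0.855% were higher and 0.145% lower there in DMEM, and 0.0242% were called in 4T1 CM.

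Of 18 tested genes for larger proteoglycans and hyaluronan, 4 rose and 5 fell in mono-culture and 3 rose and 2 fell in co-culture. Sdc1 (syndecan-1) averaged 1768 ± 292 normalized reads in mono-culture in 4T1 CM and 665 ± 32.2 in mono-culture in DMEM, and Vcan (versican) averaged 132 ± 80.5 in mono-culture in 4T1 CM and 350 ± 33.4 in mono-culture in DMEM. Both were called in the same direction in co-culture, with log2 fold changes of 0.79 and -1.07.

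Sorted macrophages served as a check for fibroblast RNA, since they are not known as a main source of decorin or biglycan. Of the 6 members listed there, Dcn, Bgn, Fmod and Prelp were higher in co-cultured macrophages than in macrophages without fibroblasts. Bgn had 729, 642, 4763 and 1097 normalized reads in macrophages co-cultured in 4T1 CM, against 10.7, 17.6, 37.1 and 4.98 in those mono-cultured in 4T1 CM. Dcn had 257, 258, 1626 and 509 in macrophages co-cultured in 4T1 CM, against 0, 0, 6.04 and 0 in those mono-cultured in 4T1 CM. In each co-culture library both genes were above all the mono-culture libraries, as were 14.7% of all genes, with 11.5% below. By the edgeR quasi-likelihood test on raw counts the 4 tested members were called higher, where 14% of the 10088 genes tested were higher and 26% were called in all. Nothing is read from that count, since Dcn, Fmod and Prelp passed the filter on low counts only through co-cultured macrophages and could only come out higher. The edgeR log2 fold change was 8.43 (adjusted p = 1.64e-05) for Dcn and 6.59 (adjusted p = 2.38e-05) for Bgn. Without mono-culture replicate 3, which held the 7 reads of Dcn in that group, it was 12.4 for Dcn, a fitted value against a group at 0 and no measure of size, and 7.30 for Bgn. Without co-culture replicate 3 the values were 7.51 and 5.47. Fmod and Prelp did not enter the test when the fit held the compared groups alone.

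In DMEM the comparison was with the 3 libraries taken as day 0, whose columns carry a head for macrophages alone in DMEM. If that head is right, the comparison is of co-culture with mono-culture in DMEM. Bgn had 370, 432 and 1768 normalized reads in macrophages co-cultured in DMEM, against 9.06, 6.19 and 6.20 in these 3. Dcn had 60.4, 52.0 and 244 in the co-cultures, against 9.06, 1.55 and 6.20. Neither gene overlapped between the groups, where 15.6% of all genes were without overlap and higher and 16.1% without overlap and lower. By edgeR the 4 tested members were called higher, where 8.47% of genes were higher, 6.71% lower and 15.2% called in all, and the same filter fixed the direction of Dcn, Fmod and Prelp. The log2 fold change was 4.43 for Dcn (adjusted p = 0.00432) and 6.90 for Bgn (adjusted p = 0.000167), and 3.31 and 5.81 without co-culture DMEM replicate 3. Fmod had 28.4, 23.3 and 60.2 normalized reads in the co-cultures and no read in the 3 others. Set against 3 reads in the group without any, it was at least 56.4-fold higher, and Prelp, with 34.3, 24.4 and 103 in the co-cultures, at least 85.9-fold higher. Co-culture replicate 3 held 92 of the 138 Fmod reads and 158 of the 210 Prelp reads, and without it these bounds were 34.9 and 39.4. Without 1 of the 3 libraries that had no read they were 36.3 to 38.5 and 55.3 to 58.6.

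The levels in co-cultured macrophages were set beside those of other fibroblast genes in the same libraries. In percent of the level in fibroblasts co-cultured in the same medium, Bgn stood at 2.96, 2.53, 19.4 and 4.46 in 4T1 CM, and the median of the 18 fibroblast marker genes at 3.22, 2.86, 18.8 and 6.00. Bgn lay below the median marker in 3 of these 4 libraries and above it in replicate 3. Dcn stood at 5.61, 5.46, 35.6 and 11.1 percent, above that median in all 4. In DMEM Bgn stood at 1.43, 1.76 and 7.00 percent, Dcn at 2.97, 2.69 and 12.3, and the markers at 2.36, 1.90 and 6.59. The library with the highest value was co-culture replicate 3 in both media.

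**Figure D5:**
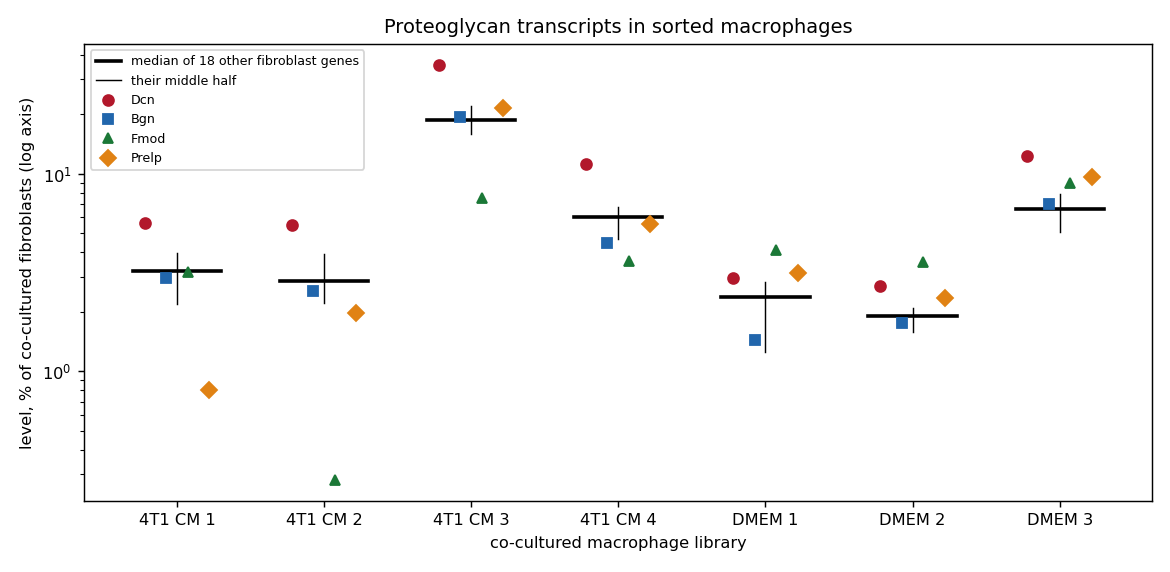
Level of 4 proteoglycan genes in each co-cultured macrophage library in percent of the mean level in fibroblasts co-cultured in the same medium (log y axis, from CPM); the horizontal line is the median of 18 fibroblast marker genes and the thin vertical line their middle 50%. Bgn stands below the median line in 5 libraries and above it in the 2 of replicate 3, Dcn stands above it in all 7, and replicate 3 is highest in both media.

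Between the co-cultured macrophages in 4T1 CM and in DMEM, Dcn was the 1 of 4 tested members called, and it was higher, where 5.68% of genes were higher, 4.63% lower and 10.3% called in all. Its edgeR log2 fold change was 2.43 (adjusted p = 0.0226). The call was lost without co-culture 4T1 CM replicate 3 (log2 fold change 1.49, adjusted p = 0.0670), co-culture DMEM replicate 1 (0.120) or co-culture DMEM replicate 2 (0.113). The fibroblast marker sum was 3647 to 11886 CPM in these macrophages in 4T1 CM and 1252 to 4407 in DMEM. The sum is no even measure of the markers. In 4T1 CM the highest marker stood at 142, 195, 162 and 73.7 percent of the fibroblast level, and the median marker at 3.22, 2.86, 18.8 and 6.00. In DMEM the highest stood at 6.38, 13.2 and 22.2 percent, and the median at 2.36, 1.90 and 6.59. The 18 marker genes had a median log2 fold change of 0.70, and 1 was called higher. Dcn was also higher in 4T1 CM in the fibroblasts. The part of fibroblast RNA in the member differences of this comparison was not tested. Same-numbered co-cultures of the 2 media had deviations from the group means with r of 0.228, 0.169 and 0.443. Differently numbered ones reached r = 0.201 (4T1 CM replicate 4 with DMEM replicate 1). A block for the replicate number was fitted over all 14 macrophage libraries, including groups that the numbers did not pair. With this block 3 of the 4 were called. These were Dcn (2.44, edgeR adjusted p = 0.000203), Bgn (1.11, edgeR adjusted p = 0.0439) and Fmod (-2.05, edgeR adjusted p = 0.0396), but not Prelp (-0.91, edgeR adjusted p = 0.272). Without the block Bgn had a log2 fold change of 1.07 (adjusted p = 0.356), and of -0.05 without co-culture 4T1 CM replicate 3. Fmod and Prelp had log2 fold changes of -1.91 and -0.72 without the block, with adjusted p of 0.0849 and 0.611, and both were lower at an adjusted p of 0.0279 and 0.0473 without that library. The genes called in this comparison numbered 1040, and 540 and 618 without co-culture DMEM replicate 1 or 2. Fmod had 9.37, 0.859, 22.3 and 10.7 normalized reads in 4T1 CM, against 28.4, 23.3 and 60.2 in DMEM, without overlap, as for 11.3% of all genes in each direction. Lum and Aspn were too sparse to test. Lum was read in 3 of the 4 macrophage co-cultures in 4T1 CM and in 1 of 3 in DMEM, and Aspn in 0 of 4 and 3 of 3.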

How the data were processed

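RNA was measured by 3' end sequencing in 26 mouse libraries, 12 of fibroblasts and 14 of macrophages. Tools named in the submitters' processing notes, with no role given, are HTSeq, bcl2fastq and STAR 2.4.2a, and the build named is mm10. For macrophages the authors deposited raw counts. For both cell types they also deposited a normalized signal, here called normalized read count, of which 100% of values are a whole number of reads times 1 factor per library, within 0.001 reads. The lowest maximum over libraries of any listed gene is 6 reads, so genes with fewer are not covered.

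Groups came from the sample titles. Macrophage columns headed as alone in DMEM were matched to the samples titled day 0. Fibroblasts were tested with limma 3.58.1 (R 4.3.3, trend, two-sided) on log2(value + 1) for genes reaching 5 in 2 or more libraries, with 12 libraries in 1 fit. Macrophages were tested with edgeR 4.0.16 (quasi-likelihood, TMM, filterByExpr), 14 libraries in 1 fit. p-values were Benjamini-Hochberg adjusted over all genes tested, with a threshold of 0.05. Fold bounds used a floor of 3 counts over a group. CPM divide recovered reads by a library's total over listed genes. The tests were checked on simulated data.

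The members and gene lists were chosen with earlier results of these data known. Named genes were the 7 members, up to 6 called genes per list and comparison by smallest adjusted p (with collagens, Tlr2, Tlr4, Cd44, Tgfb1 to Tgfb3 and Bmp1 open to naming whether called or not), 3 neighbours in pattern per member, and marker genes. Positions are from GENCODE vM21. Replicate numbers were taken to pair libraries where the deviations from the group means had r over 0.1 in every same-numbered pair of the groups compared. This held for macrophages co-cultured in 4T1 CM and in DMEM (r = 0.228, 0.169 and 0.443) and for no other comparison. Alternatives were other pseudocounts, filters and normalizations, edgeR and DESeq2 1.42.0 on recovered reads, only the compared groups, a replicate block and leaving out each library (for fold bounds, added after seeing the data). Genes were counted by symbol and genes that share sequence were not examined. Marker lists for mural, endothelial, epithelial and adipose cells were measured as well, and of those tested in fibroblasts in 4T1 CM against DMEM 1 rose and 2 fell of 4 mural, 1 and 1 of 10 endothelial, 0 of 3 epithelial and 0 of 1 adipocyte genes in mono-culture, and 2, 6, 0 and 0 fell in co-culture. Of all genes tested, 6.36% rose and 6.93% fell in mono-culture, and 2.33% and 3.52% in co-culture.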

Additional observations from a re-analysis of the deposited data

Results flagged for a closer look

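In 16 groups of 4 libraries the gap between the highest or lowest library and its nearest neighbour was set against the whole range, and 4 exceeded Dixon's critical value for 4 samples. For normally distributed values chance gives about 1 in 20 groups. That rate does not apply where a single library holds all reads of a gene, so the count of 4 is not read against it. Each of the 4 was in macrophages. Bgn in macrophages co-cultured in 4T1 CM stood apart in replicate 3, with 4763 normalized reads against 642 to 1097 in the other 3 and a ratio of gap to range of 0.89. Fibroblast marker genes had a median of 18.8% of the fibroblast level in that library, and 2.86% to 6.00% in the other 3. The other 3 cases had a ratio of 1 because a single library of macrophages mono-cultured in 4T1 CM held all reads of the gene: 7 reads of Dcn in replicate 3, 1 read of Prelp in replicate 1 and 1 read of Aspn in replicate 1.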

How the results depend on the processing

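Of 763 recomputed log2 fold changes in fibroblasts 711 kept their direction and side of the threshold, as did 215 of 226 in macrophages. In the counts of called members, co-culture against mono-culture, both with 4T1 CM, gave 1 in fibroblasts by DESeq2 against 0, and 2 in macrophages against 4 with the compared groups alone. Co-culture against mono-culture in DMEM gave 1 in fibroblasts with the compared groups alone. In macrophages, co-culture in 4T1 CM against co-culture in DMEM gave 0 with the compared groups alone, 3 with the replicate block and 0 by DESeq2, against 1. Counts over all genes moved for fibroblasts in 4T1 CM, co-culture against mono-culture: 3 genes became 5 at a pseudocount of 0.5, 0 at 5, 1 at a filter of 20, 0 by quantile normalization, 0 by edgeR, 28 by DESeq2, 0 with the compared groups alone and 0 with the replicate block. In DMEM 124 became 73 at a filter of 20, 212 by DESeq2 and 205 with the compared groups alone. For 4T1 CM against DMEM in co-culture 725 became 444 with the compared groups alone. For the interaction 18 became 10 by edgeR, 131 by DESeq2 and 1 with the replicate block. Where an alternative holds fewer samples its construction lowers the degrees of freedom, and elsewhere the cause was not tested.

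Leaving out 1 library gave these ranges of called members, then of called genes. In fibroblasts they were 1 to 4 and 537 to 1740 for 4T1 CM in mono-culture, 3 to 5 and 258 to 818 for 4T1 CM in co-culture, 0 and 18 to 142 for co-culture in DMEM, 0 and 0 to 297 for co-culture in 4T1 CM, and 0 and 2 to 197 for the interaction. In macrophages they were 4 and 2127 to 2818 for co-culture in 4T1 CM, 4 and 1000 (without co-culture DMEM replicate 3) to 1646 for co-culture in DMEM against day 0, and 0 to 2 and 540 to 1159 for 4T1 CM in co-culture. A group left with 1 library is assumed to vary like the others.

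No value reported as called changed direction, but Bgn and Prelp in macrophages, 4T1 CM against DMEM in co-culture, passed under 1 alternative each and turned under another. With the replicate block Aspn became -0.17 (co-culture in 4T1 CM) and -0.19 (interaction) and Ogn -0.15 (interaction). By quantile normalization Bgn became 0.23 (4T1 CM in co-culture), -0.012 (DMEM, co-culture against mono-culture) and 0.012 (interaction), and Ogn -0.25 (interaction). At a pseudocount of 5 Ogn became -0.085 (interaction). With 1 library left out the log2 ranges that crossed 0 were, for co-culture in 4T1 CM, -0.33 to 0.60 (Aspn) and -0.16 to 1.25 (Ogn). For 4T1 CM in co-culture it was -0.079 to 0.051 (Bgn), for 4T1 CM in mono-culture -0.019 to 0.79 (Fmod), and for co-culture in DMEM -0.42 to 0.48 (Aspn) and -0.19 to 0.26 (Dcn). For the interaction they were -0.36 to 0.66 (Aspn), -1.04 to 0.45 (Lum) and -0.51 to 0.90 (Ogn). In macrophages, 4T1 CM in co-culture, they were -0.051 to 2.16 (Bgn) and -1.95 to 0.20 (Prelp).

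Replicate numbers did not pair the fibroblast libraries, whose same-numbered deviations had r from -0.24 to 0.19 over 15 pairs. In macrophages the range was -0.27 to 0.44 over 19 pairs, and the 3 pairs of co-cultures in the 2 media met the criterion for pairing. With the replicate block 3 members were called in each comparison of 4T1 CM with DMEM in fibroblasts, as Lum had a limma adjusted p of 0.0530 in mono-culture and 0.0917 in co-culture. Depth limits Aspn and Ogn in 4T1 CM, read 0 to 14 times per library.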
